A study of Mus musculus with 9 samples.

Results

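The 10 genes described here encode proteins of the secondary (specific) and tertiary (gelatinase) granules of the mouse neutrophil: Ltf, Camp, Ngp, Lcn2, Chil3, Mmp8, Cd177 and Olfm4 on the specific side, and Mmp9 and Mmp25 on the gelatinase side. They were chosen by name, with earlier results of these data known, and all 10 were among the 7197 genes listed in the table of normalized read counts. Neutrophils were sorted from bone marrow as cells positive for CD45, CD11b and Ly6G, and their poly(A) RNA was sequenced from the 3′ end. The comparison was between 5 Rragc+/+ libraries and 4 RragcS74N/+ libraries from young mice, 2 months of age, with no treatment named. The RragcS74N/+ mice carried 1 edited allele in the germline, so that every cell type of the animal had it, encoding a RagC protein with asparagine in place of serine that signals nutrient sufficiency to the kinase complex mTORC1. The question was whether the granule programme of marrow neutrophils differed at an age before the old animals' myeloid inflammation. Nothing in the labels ties a library to a litter, batch or day, so that p-values measure the spread between these samples.

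Neutrophils make their granules one kind after another while they mature in the marrow. Primary granules are filled at the promyelocyte stage, specific granules at the myelocyte and metamyelocyte stages, and gelatinase granules in band and segmented cells, and a protein is sorted mainly into the granule that is being built when its gene is transcribed. The transcripts of these genes are therefore used to place a marrow neutrophil along its maturation, and members of the C/EBP family of transcription factors, C/EBPε above all, are needed for specific granules to form.

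Promoter sequences are shown for the 4 genes that later carry the closest relations between libraries, Ltf with Cd177 and Camp with Mmp25, and for Ngp, the member with the most matches to the C/EBP core. Each line holds 250 bases before and 50 bases after the annotated start, 5′ to 3′ in the direction of the gene, from RefSeq on build GRCm38.p6, and capitals mark matches to the letters TTNNGCAA on either strand. The regions were chr9:111019042-111019341 on the plus strand for Ltf, chr7:24760262-24760561 on the minus strand for Cd177, chr9:109849407-109849706 on the minus strand for Camp, chr17:23645220-23645519 on the minus strand for Mmp25 and chr9:110419558-110419857 on the plus strand for Ngp.
Ltf: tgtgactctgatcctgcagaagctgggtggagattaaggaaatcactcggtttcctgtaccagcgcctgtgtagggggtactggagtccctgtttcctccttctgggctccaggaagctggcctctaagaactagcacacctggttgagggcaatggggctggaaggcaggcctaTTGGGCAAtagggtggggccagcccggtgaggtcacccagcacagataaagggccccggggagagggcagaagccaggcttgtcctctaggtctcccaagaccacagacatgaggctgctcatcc
Cd177: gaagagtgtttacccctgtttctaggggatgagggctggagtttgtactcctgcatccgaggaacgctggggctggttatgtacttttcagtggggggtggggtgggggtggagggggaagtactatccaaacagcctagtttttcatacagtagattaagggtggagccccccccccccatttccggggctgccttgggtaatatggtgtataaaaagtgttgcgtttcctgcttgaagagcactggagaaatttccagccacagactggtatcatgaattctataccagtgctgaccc
Camp: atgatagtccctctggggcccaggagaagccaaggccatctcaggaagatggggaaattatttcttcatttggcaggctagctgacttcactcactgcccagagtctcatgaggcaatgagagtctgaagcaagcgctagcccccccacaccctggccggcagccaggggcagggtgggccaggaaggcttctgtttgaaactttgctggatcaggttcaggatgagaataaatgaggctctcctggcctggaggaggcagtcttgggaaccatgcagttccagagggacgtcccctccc
Mmp25: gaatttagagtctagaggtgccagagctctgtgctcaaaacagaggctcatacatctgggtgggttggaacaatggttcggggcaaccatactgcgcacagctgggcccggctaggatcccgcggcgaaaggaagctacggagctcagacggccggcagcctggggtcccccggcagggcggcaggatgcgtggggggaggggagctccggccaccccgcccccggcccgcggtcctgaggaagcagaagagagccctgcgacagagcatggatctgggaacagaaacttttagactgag
Ngp: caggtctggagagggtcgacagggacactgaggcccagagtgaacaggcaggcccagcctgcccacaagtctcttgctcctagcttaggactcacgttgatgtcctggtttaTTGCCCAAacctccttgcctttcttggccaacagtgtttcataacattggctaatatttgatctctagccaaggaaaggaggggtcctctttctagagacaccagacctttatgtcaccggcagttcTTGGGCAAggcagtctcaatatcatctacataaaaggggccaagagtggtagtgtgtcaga
A promoter was matched for 9 of the 10 genes, and 4 of these 9 held TTNNGCAA, namely Ltf, Ngp, Lcn2 and Mmp8. The share was 10.8% over 32817 RefSeq mouse promoters and 8.62% over the 7273 promoters of listed genes. In Ltf the match began at position -75 from the start, and in Ngp the matches began at -138 and -11. The letters GAGGAA, the core bound by the myeloid factor PU.1, stood on either strand in 6 of the 9, against 28.3% of all promoters and 27.8% of those of listed genes, and did not overlap the C/EBP matches. A match of letters describes the window and does not show that a factor bound there.

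The libraries held between 1214295 and 1973957 reads over listed genes. The sort was checked against 7 neutrophil markers, which were all listed and took 8.36 to 12.5% of the reads. Rragc itself, the edited gene, had 71.0 ± 10.3 normalized counts in Rragc+/+ and 65.8 ± 9.52 in RragcS74N/+ neutrophils (SD, n = 5 and 4), with a log2 change of -0.11 and an adjusted p of 0.860 by limma. The edit alters the protein and not the number of copies of the gene, so this level does not check the genotype labels. Among markers of other cells, 7 of 8 erythroid genes were listed, with summed values of 1091 to 5609 in Rragc+/+ and 379 to 2158 in RragcS74N/+ libraries, at most 0.404% of the reads. Of the monocyte markers 2 of 7 were listed, Csf1r and Ly6c2, with sums of 2202 to 3420 and 2211 to 3990. The B cell, T and NK cell, macrophage, and eosinophil and basophil lists had 2 of 6, 1 of 5, 5 of 5 and 3 of 6 genes listed and stayed at or below 0.0143% of the reads, and no platelet marker of 4 was analysed here. The part of these cells in the values that follow was not tested.

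None of the 10 granule genes was called different between the genotypes. By limma on log2(value + 1), with Benjamini-Hochberg adjustment over 6673 genes, 0 of the 10 had an adjusted p under 0.05, and their adjusted p-values lay between 0.741 and 0.993. Over all genes tested the share was 0%, so that nothing sets the granule genes apart in this. At an unadjusted p under 0.05 the count was 0 of 10, against 5.81% of all genes tested, and the 5 and 4 values overlapped in 10 of 10 genes, where 1.69% of all genes had none overlapping. The log2 change was below 0 for 7 genes and above 0 for 3, beside 46.6% of all genes below 0. The median change was -0.05 for the granule genes and 0.02 over all genes tested. The edgeR and DESeq2 fits of the recovered reads also called 0 of the 10, and 0 genes in all, with 460 and 447 genes at an unadjusted p under 0.05, against 388 by limma. In such bulk samples fewer cells of a type and less RNA in each cell cannot be told apart.

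**Figure D1:**
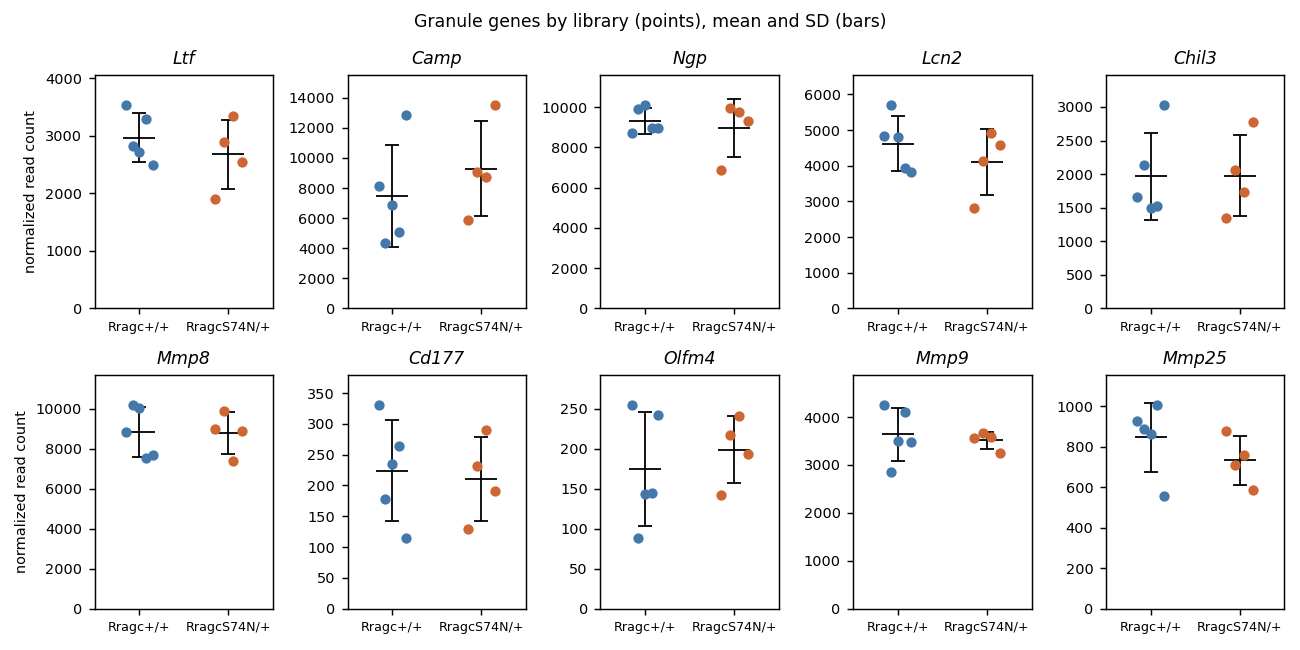
Normalized read count of each granule gene (vertical axes, from 0) in the Rragc+/+ (blue, n = 5) and RragcS74N/+ (orange, n = 4) libraries, 1 point per library, with the mean and SD as black bars. The 2 genotypes overlap in each of the 10 panels, and Camp spreads widest, from 4348 to 13514.

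Camp, among the specific granule genes, ranged widely between libraries, and Ngp varied little. Camp encodes the cathelicidin precursor, whose cleaved peptide kills bacteria. Its normalized counts were 8134, 4348, 6885, 5074 and 12861 in the Rragc+/+ libraries and 5850, 9052, 8748 and 13514 in the RragcS74N/+ libraries. The means were 7461 ± 3367 and 9291 ± 3163 (SD, n = 5 and 4), a log2 change of 0.36 (SE 0.30, limma adjusted p = 0.741). The 95% interval of that change was -0.29 to 1.01, the highest upper bound of the set, and the change ran from 0.16 to 0.59 when 1 library was left out. The highest library of each genotype stood well above its neighbours.

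Ngp encodes neutrophilic granule protein, a cystatin-like protein related to cathelicidin. It had the most reads of the 10 genes and ranked 10 among all listed genes. The libraries of Rragc+/+ had 8705, 9930, 10108, 8954 and 8959 normalized counts of Ngp, and those of RragcS74N/+ had 6857, 9965, 9738 and 9298. Except for replicate 1 of RragcS74N/+, the libraries lay between 8705 and 10108. The log2 change was -0.07 with a standard error of 0.16, an interval of -0.42 to 0.28 and an adjusted p of 0.896 (limma), and it turned to 0.05 without that replicate.

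Ltf encodes lactoferrin, the iron-binding protein that marks specific granules. For Ltf the normalized counts were 3533, 2820, 2710, 3291 and 2485 in Rragc+/+ and 1906, 2895, 3348 and 2548 in RragcS74N/+ libraries. Replicate 1 of RragcS74N/+ was again the lowest, while the other 3 lay inside the Rragc+/+ range. The log2 change was -0.17 with a standard error of 0.19, an interval of -0.57 to 0.24 and an adjusted p of 0.787 (limma). Without that replicate the change was -0.015.

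Lcn2 encodes lipocalin 2, which binds bacterial siderophores and so withholds iron. Its normalized counts were 4830, 5700, 4808, 3937 and 3819 in Rragc+/+ and 2802, 4128, 4911 and 4579 in RragcS74N/+ libraries, a log2 change of -0.19 with an interval of -0.61 to 0.24 and an adjusted p of 0.779 (limma). The same RragcS74N/+ replicate 1 was lowest here too, and without it the change was -0.013. Chil3 encodes a chitinase-like protein of mouse myeloid cells. It has a near-identical copy, Chil4, so that reads of the pair may not be told apart in the counting. The level of Chil3 is therefore uncertain. Its normalized counts were 1660, 2142, 1499, 1519 and 3028 in Rragc+/+ and 1340, 2059, 1736 and 2780 in RragcS74N/+ libraries. The log2 change was 0.01 with a standard error of 0.25, an interval of -0.52 to 0.54 and an adjusted p of 0.993 (limma). The highest library in each genotype, replicate 5 of Rragc+/+ and replicate 4 of RragcS74N/+, was also the highest for Camp.

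Mmp8 encodes neutrophil collagenase, which cuts fibrillar collagens. Mmp8 had normalized counts of 8813, 10169, 10013, 7538 and 7697 in Rragc+/+ and 8965, 9894, 7367 and 8884 in RragcS74N/+ libraries. The means of 8846 ± 1239 and 8777 ± 1046 (SD, n = 5 and 4) gave a log2 change of -0.01, an interval of -0.37 to 0.35 and an adjusted p of 0.993 (limma). No library stood apart from the rest for Mmp8.

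Cd177 and Olfm4 had the fewest reads, and their levels carry the most counting error. Cd177 encodes a surface and granule-membrane glycoprotein of neutrophils. The normalized counts of Cd177 were 330, 178, 234, 264 and 114 in Rragc+/+ and 129, 231, 291 and 191 in RragcS74N/+ libraries, a log2 change of -0.06 with an interval of -0.70 to 0.57 and an adjusted p of 0.957 (limma). Olfm4 encodes olfactomedin 4, a protein of a subset of specific granules. Olfm4 had normalized counts of 254, 88.8, 143, 145 and 242 in Rragc+/+ and 143, 218, 240 and 193 in RragcS74N/+ libraries, a log2 change of 0.26 with an interval of -0.35 to 0.87 and an adjusted p of 0.782 (limma). At the fewest reads, 114 for Cd177 and 76 for Olfm4, counting error alone gives a coefficient of variation of 9.37% and 11.5%, if each read is independent. The coefficients measured between libraries, which include the differences between samples, were 36.7% in Rragc+/+ and 32.2% in RragcS74N/+ for Cd177, and 40.6% and 21.1% for Olfm4.

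Of the gelatinase granule genes, Mmp9 encodes gelatinase B, which cuts denatured collagen and basement membrane collagen. Mmp9 had normalized counts of 4244, 2856, 3502, 4101 and 3488 in Rragc+/+ and 3567, 3667, 3574 and 3252 in RragcS74N/+ libraries. The log2 change was -0.04 with a standard error of 0.16, an interval of -0.38 to 0.31 and an adjusted p of 0.950 (limma). The 4 RragcS74N/+ values all fell within the range of the 5 Rragc+/+ values. Mmp25 encodes a membrane-anchored matrix metalloproteinase found on neutrophil granules and surface. Its normalized counts were 929, 887, 862, 1006 and 559 in Rragc+/+ and 879, 712, 762 and 587 in RragcS74N/+ libraries, a log2 change of -0.19 with an interval of -0.61 to 0.22 and an adjusted p of 0.772 (limma). Replicate 5 of Rragc+/+ and replicate 4 of RragcS74N/+, the highest libraries for Camp, were the lowest for Mmp25.

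**Figure D2:**
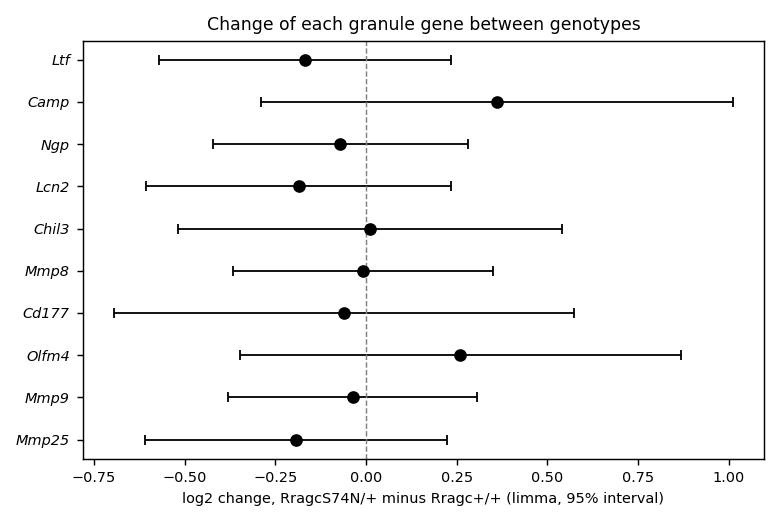
Log2 change of each granule gene, RragcS74N/+ minus Rragc+/+ (horizontal axis), as the limma estimate (point) with its 95% interval (line). Each of the 10 intervals crosses 0, from -0.70 at the lowest bound (Cd177) to 1.01 at the highest (Camp).

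The share of all listed reads that fell on the 10 genes was the readout of the granule programme as a whole. It was 3.19, 2.76, 3.02, 2.85 and 3.12% in the Rragc+/+ libraries and 2.64, 3.01, 3.24 and 3.03% in the RragcS74N/+ libraries. The means were 2.99 ± 0.181% and 2.98 ± 0.250% (SD, n = 5 and 4), and the exact permutation test over 126 assignments, two-sided, gave p = 0.952, where the smallest p it allows is 0.00794. The interval of the ratio of RragcS74N/+ to Rragc+/+ from the same permutation test ran from 0.874 to 1.11 at 95%. Without replicate 1 of RragcS74N/+, the lowest library, the log2 difference turned from -0.0047 to 0.05 (exact permutation p = 0.375). The fewest and the most reads behind these shares were 33477 and 62912, and the Wilson 95% interval of the lowest share, 2.62 to 2.66%, did not reach the next, 2.73 to 2.79%. Such intervals cover counting error only and take each read as independent.

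The summed share varied less than the share of any gene in it. Its highest library was 1.23 times its lowest, with a coefficient of variation of 6.69% over the 9 libraries, while the shares of single genes ran from 1.34 times (Mmp8) to 3.12 times (Olfm4) and from 9.87% (Ngp) to 36.1% (Cd177). The sum is made of these same genes, so this contrast is a description and was not tested. Ngp, Mmp8 and Camp together made up 60.2 to 69.2% of the reads of the set in each library. Camp alone ranged from 11.1% of the set in replicate 2 of Rragc+/+ to 29.7% in replicate 4 of RragcS74N/+.

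**Figure D3:**
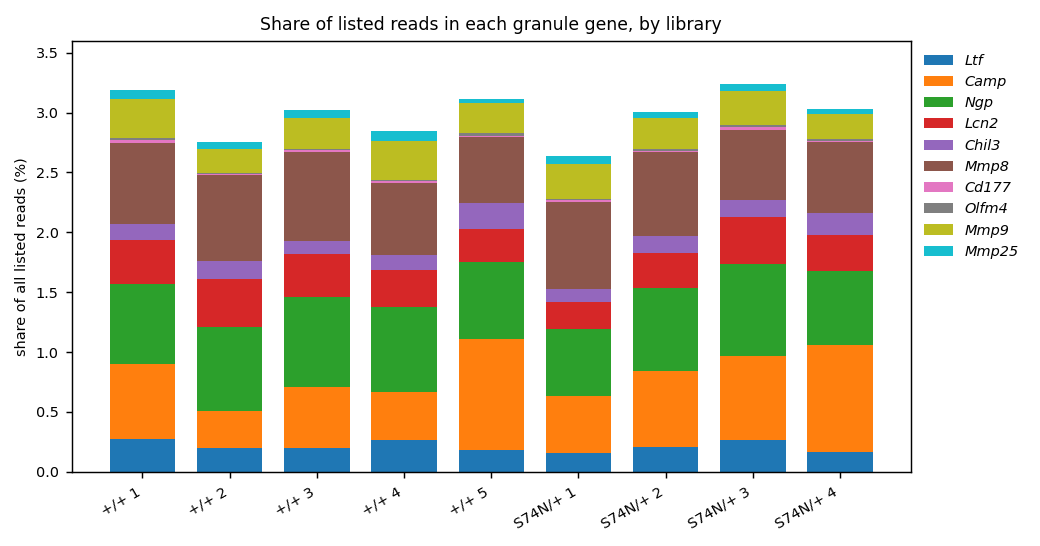
Share of all listed reads (%, vertical axis, from 0) in each library (horizontal axis, 5 Rragc+/+ and 4 RragcS74N/+), stacked by gene. The total stays between 2.64 and 3.24% while the Camp segment changes from library to library.

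Each gene was also given equal weight. The mean log2 level of the 10 genes was 11.02 ± 0.12 in Rragc+/+ and 11.01 ± 0.22 in RragcS74N/+ libraries (SD, n = 5 and 4; exact permutation p = 0.968, two-sided). Replicate 1 of RragcS74N/+ stood at 10.69, below the other libraries, and held the lowest value of 4 of the 10 genes, Ltf, Ngp, Lcn2 and Chil3. Without it the log2 difference between genotypes was 0.10 (exact permutation p = 0.196). Replicate 1 of Rragc+/+ stood at 11.22 and held the highest value of 4 genes, Ltf, Cd177, Olfm4 and Mmp9.

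The later gelatinase genes were set against the earlier specific genes within each library, a ratio that does not depend on how the libraries were scaled. The ratio of Mmp9 plus Mmp25 to the 8 specific granule genes was 0.143, 0.106, 0.120, 0.166 and 0.103 in Rragc+/+ and 0.159, 0.114, 0.119 and 0.0914 in RragcS74N/+ libraries. The means were 0.128 ± 0.0267 and 0.121 ± 0.0280 (SD, n = 5 and 4), with a log2 difference of -0.08 and an exact permutation p of 0.683, two-sided. The 95% interval of the ratio of RragcS74N/+ to Rragc+/+, from 0.671 to 1.37, is wide, so that a moderate difference in either direction was not detectable with these 9 libraries.

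Reads from the 3′ end do not scale with transcript length, so the read numbers of different genes were set side by side, as reads and not as molecules. By mean normalized count the order was Ngp (9168), Mmp8 (8815), Camp (8274), Lcn2 (4390), Mmp9 (3583), Ltf (2837), Chil3 (1974), Mmp25 (798), Cd177 (218) and Olfm4 (185), and 4 of the 10 were among the 25 most abundant listed genes. The place of Chil3 is uncertain because of its copy Chil4. Neighbours at the top were not set apart by their spread: Ngp exceeded Mmp8 in 6 of 9 libraries and Mmp8 exceeded Camp in 6 of 9. Cd177 exceeded Olfm4 in 6 of 9 libraries. Mmp9 exceeded Ltf, Chil3 exceeded Mmp25 and Mmp25 exceeded Cd177 in 9 of 9.

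Within a genotype the genes differed widely in how much they varied. The pooled SD on the log2 scale was 0.56 for Camp, 0.55 for Cd177, 0.52 for Olfm4 and 0.44 for Chil3, and between 0.28 and 0.30 for Ltf, Lcn2 and Mmp25. For Mmp8, Ngp and Mmp9 it was 0.19, 0.18 and 0.18. The median over the 3475 genes with a mean of at least 50 was 0.31. Camp varied more than most of these, as 7.71% of them had a larger SD, whereas 89.1% had a larger SD than Mmp9 and 88.8% a larger SD than Ngp. Camp and Ngp had similar read numbers, while Cd177 and Olfm4, also among the most variable, had the fewest reads. The part of read number in the spread was not tested.

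**Figure D4:**
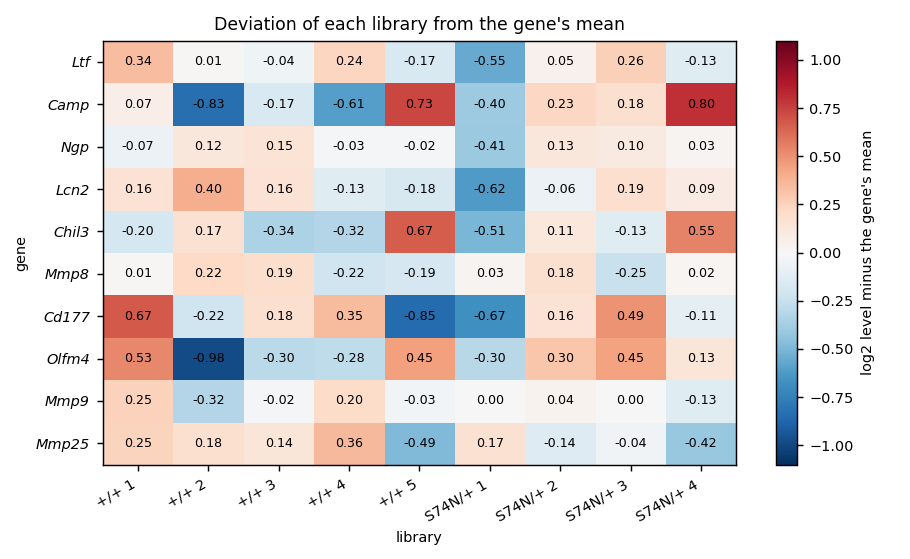
Log2 level of each granule gene (rows) in each library (columns), minus the gene's mean over the 9 libraries; red is above and blue below the mean. Replicate 5 of Rragc+/+ and replicate 4 of RragcS74N/+ are high in Camp and Chil3 and low in Mmp25, and replicate 1 of RragcS74N/+ is low in most specific granule genes.

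The genes did not rise and fall as 1 block between libraries. Over the 45 pairs, Pearson's r across the 9 libraries ranged from -0.88 to 0.86 with a median of 0.13, and 26 pairs lay above 0. Among the 28 pairs of specific granule genes the median was 0.22, with 17 above 0. By exact permutation of the pairings, 6 of the 45 pairs had an unadjusted p under 0.05 and 2 an adjusted one by Pearson's r. All pairs share the same libraries and scaling, and the relations were described with the values already seen.

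Ltf and Cd177 rose together, with r = 0.86 and Spearman's rho = 0.90 over 9 libraries (exact permutation p = 0.00184 and 0.00203, adjusted over the 45 pairs 0.0471 and 0.0913). Without the 2 libraries farthest from the median of Ltf r was 0.81, and with genotype means removed 0.89. Both genes were highest in replicate 1 of Rragc+/+ and low in replicate 1 of RragcS74N/+. Their promoters, printed above, differ in the C/EBP letters, which Ltf holds and Cd177 does not.

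Camp and Mmp25 moved in opposite directions, with r = -0.88 and rho = -0.85 over 9 libraries (exact permutation p = 0.00209 and 0.00607, adjusted over the 45 pairs 0.0471 and 0.137). Without the 2 libraries farthest from the median of Camp, replicate 2 of Rragc+/+ and replicate 4 of RragcS74N/+, r was -0.91. Replicate 5 of Rragc+/+, highest of its genotype for Camp and lowest for Mmp25, stayed in. The value without that library and replicate 4 of RragcS74N/+ was not computed. With genotype means removed r was -0.86. The Mmp25 count divided by the Camp count was 0.114, 0.204, 0.125, 0.198 and 0.0434 in Rragc+/+ and 0.150, 0.0786, 0.0871 and 0.0435 in RragcS74N/+ libraries, a 4.70-fold range. Both genotypes held libraries at the low end of this ratio. Chil3 and Mmp25 had r = -0.86 and rho = -0.63 (exact permutation p = 0.00374 and 0.0760, adjusted 0.0561 and 0.489). Without replicate 5 of Rragc+/+ and replicate 4 of RragcS74N/+, the 2 farthest from the median of Chil3, r was -0.47, a weaker relation. A different pair of libraries was left out for Camp, so the reduced values of Camp and Chil3 cannot be set against each other. Camp had an r of 0.79 with Olfm4 and of 0.68 with Chil3, with adjusted exact permutation p-values of 0.122 and 0.337.

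Camp and Mmp25 differ in transcript length, and Ltf and Cd177 in base composition. By the GENCODE annotation of build GRCm38 the longest coding-gene transcripts of Camp and Mmp25 had 758 and 4528 bases, those of Ltf and Cd177 had 2743 and 2714, and the median over matched genes was 3089. The last 500 bases were 45% G or C in Ltf and 54.6% in Cd177. After each library's trend on the base composition of transcript 3′ ends was removed, r of Camp with Mmp25 was -0.78, and after its trend on length -0.75. The values for Ltf with Cd177 were 0.73 and 0.84, where the trend on length says little because the lengths are nearly equal.

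**Figure D5:**
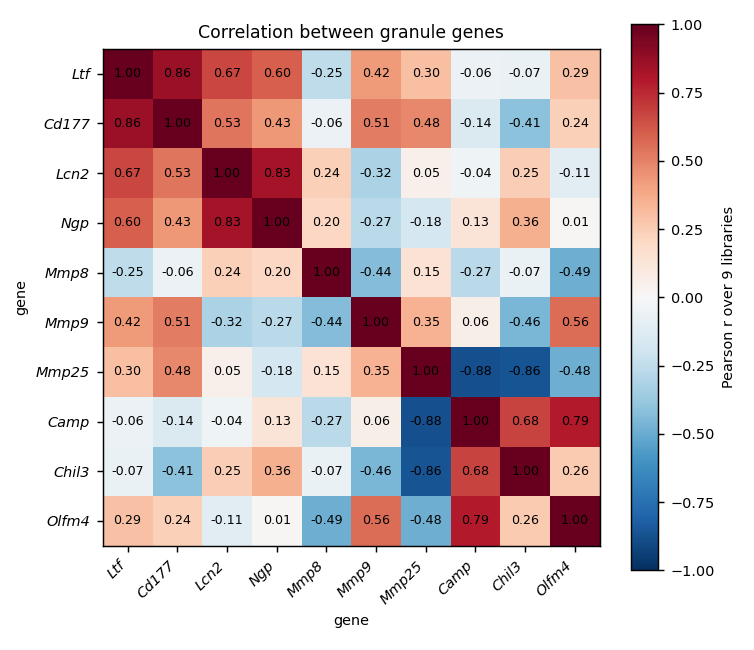
Pearson's r over the 9 libraries between the log2 levels of each pair of granule genes (rows and columns), red above and blue below 0. Ltf with Cd177 (0.86) and Camp with Mmp25 (-0.88) are the 2 pairs with an adjusted exact permutation p under 0.05.

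Cell cycle and calprotectin transcripts, and those of Prg2, Epx and Siglecf, also differed between the same libraries. The mean log2 level of 14 cell cycle genes, which dividing precursors use, was 6.52 in replicate 5 of Rragc+/+ and 6.58 in replicate 4 of RragcS74N/+, the libraries with the most Camp and the least Mmp25 relative to it, and between 5.48 and 6.40 in the other 7. The reads of S100a8 and S100a9, abundant calcium-binding proteins of neutrophils, took 10.2% of all listed reads in both of them, 10.1% in replicate 2 of RragcS74N/+ and 6.59 to 8.70% in the other 6. The S100a8 and S100a9 share was not among the planned readouts. Of the eosinophil and basophil markers only Prg2, Epx and Siglecf were listed. Their summed values were 121 in replicate 5 of Rragc+/+, and 203 and 206 in replicates 2 and 4 of RragcS74N/+. They were 46.9 to 61.8 in the other 6. Whether any of these accounts for the pairs was not tested. The granule share had r = 0.53 and rho = 0.67 with the cell cycle level (exact permutation p = 0.142 and 0.0589, adjusted over 4 relations 0.283 and 0.236), and r was 0.35 without the 2 libraries farthest from the median. The gelatinase to specific ratio had r = -0.58 and rho = -0.52 with it (exact permutation p = 0.104 and 0.162, adjusted 0.283 and 0.324), and r was -0.54 without 2 libraries. With the level of 8 genes of mature neutrophils the share had r = 0.23 and rho = 0.12 (exact permutation p = 0.549 and 0.776) and the ratio r = -0.34 and rho = -0.17 (exact permutation p = 0.364 and 0.678). None of the 4 relations passed the adjusted threshold.

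The genes whose levels ran closest to the mean log2 level of the 10 granule genes were found among 3465 other genes with a mean of at least 50. The highest Pearson's r over 9 libraries were those of Mta2 (0.94), Rplp2 (0.92), Card19 (0.91), Cfl1 (0.90) and Ffar2 (0.90), and the lowest those of Kidins220 (-0.95), Tug1 (-0.95), Ralgapa1 (-0.94), Samd8 (-0.93) and Usp7 (-0.91). Mta2 is a subunit of a chromatin-remodelling complex, Rplp2 a ribosomal protein, Cfl1 the actin-severing cofilin and Ffar2 a receptor for short-chain fatty acids. Without 2 libraries r ran from 0.62 (Cfl1) to 0.92 (Card19) at the high end. At the low end it ran from -0.71 (Usp7) to -0.94 (Samd8). These 10 are the extremes of many genes, all sharing the libraries and the scaling, so their r is a description.

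Other genes of the granule pathway were read from lists chosen by name, and 0 of the 54 tested passed the adjusted threshold in either direction. Over all genes tested that share was also 0%, so the count does not set these lists apart. At an unadjusted p under 0.05, 4 of the 54 were lower in RragcS74N/+ and 0 higher, where 5.81% of all genes tested had such a p in either direction. The share of all genes in each direction at such a p was not computed. Over all genes tested 46.6% were below 0, the background for the counts of each list that follow, and no list was tested as a set. Of 22 other granule and granule-membrane proteins 18 were tested, with 15 below 0, 3 above and a median log2 change of -0.14. Lyz2, lysozyme, had 11082 ± 1389 and 11453 ± 3363 normalized counts (SD, n = 5 and 4) and a log2 change of 0.01, and Slpi, a secreted protease inhibitor, a log2 change of -0.19, with adjusted p-values of 0.996 and 0.772 by limma. Fpr1, the formyl peptide receptor, had a log2 change of 0.13 (adjusted p = 0.812, limma). Tcn2, a vitamin B12 carrier, had 147 ± 66.5 and 86.5 ± 23.4 normalized counts and a log2 change of -0.70 (SE 0.28, limma adjusted p = 0.713). Of 6 primary granule genes 1 was tested, Prss57, a serine protease, with a log2 change of -0.36 (adjusted p = 0.746, limma).

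Of 10 genes for granule traffic and fusion 8 were tested, with 6 below 0, 2 above and a median log2 change of -0.34. Snap23 and Stxbp2, parts of the membrane fusion machinery, had log2 changes of -0.22 and -0.40 (adjusted p = 0.741 and 0.713, limma), and Rab27a, the small GTPase that docks granules, one of 0.18 (adjusted p = 0.782, limma). Vamp2, a vesicle SNARE, had 18.2 ± 14.3 and 7.25 ± 2.35 normalized counts and a log2 change of -1.02 (adjusted p = 0.713, limma), with replicate 2 of Rragc+/+ at 43.2 far above the others.

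All 7 transcription factors listed for granule gene control were tested, with 4 below 0, 3 above and a median of -0.24. Cebpb, the C/EBP factor of emergency granulopoiesis, had normalized counts of 346, 399, 432, 335 and 302 in Rragc+/+ and 230, 314, 270 and 188 in RragcS74N/+ libraries. The log2 change was -0.55 with a standard error of 0.18, an unadjusted p of 0.0103 and an adjusted p of 0.713 (limma), and replicate 2 of RragcS74N/+ lay above replicate 5 of Rragc+/+. Cebpd had a log2 change of 0.19, Spi1, which encodes PU.1, one of -0.24 and Runx1 one of 0.42, with adjusted p-values of 0.798, 0.744 and 0.713 (limma).

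Of the cell cycle genes 12 were tested, with 8 above 0, 4 below and a median of 0.10, and of the mature neutrophil genes 8, with 3 above, 5 below and a median of -0.09. H2az1, a histone variant, and Hmgb2, a chromatin protein, had log2 changes of 0.11 and 0.04 (adjusted p = 0.902 and 0.947, limma), and Cdk1, the mitotic kinase, and Tubb5, a tubulin, had 0.70 and -0.34 (adjusted p = 0.714 and 0.713, limma). Retnlg, a resistin-like protein, and Ccl6, a chemokine, had log2 changes of 0.11 and -0.26 (adjusted p = 0.882 and 0.729, limma). The sorting genes Ly6g and Itgam, which encodes CD11b, had 0.05 and -0.09 (adjusted p = 0.950 and 0.864, limma). Neither the granule genes nor the genes that stage the cells were called different between the genotypes, and no other gene tested was.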

How the data were processed

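Bone-marrow neutrophil RNA was made into QuantSeq 3′ libraries with a unique-molecular-identifier module; whether reads were collapsed by identifier is not given in the sources used here. The authors aligned reads with TopHat2 2.0.10 to GRCm39 and counted them by strand with HTSeq 0.6.1, per the labels and the methods. The deposited values are a signal: gene read counts divided by 1 size factor per library. They were whole multiples of 1 read's value in 100% of cases, within 0.001 of a whole number, so reads were recovered. The main test was limma 3.58.1 (R 4.3.3) on log2(value + 1), for genes with a mean of at least 10, genotype as the only term, Benjamini-Hochberg adjusted at 0.05. edgeR 4.0.16 and DESeq2 1.42.0 were run on the recovered reads. Single readouts had exact permutation tests over the libraries, and their intervals came from inverting those tests. A log2 change on this scale understates changes of low genes. The tests were tested on simulated data.

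The text names each member, the 2 most abundant and the smallest p in each direction from each pathway list, the 5 closest and 5 most opposite genes, Rragc, Ly6g and Itgam. The S100a8 and S100a9 share stood outside this rule. Members and lists were chosen with earlier results of these data known. Alternatives were pseudocounts of 0.5 and 5, other filters, scalings, weights and denominators, leaving out each library and, added after seeing the data, trends on base composition and length. Of the listed genes, 7067 of 7197 (98.2%) were matched to transcripts of GENCODE GRCm38, which is not the authors' build and was used for length and composition of the last 500 bases. RefSeq promoters were matched by symbol.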

Additional observations from a re-analysis of the deposited data

Results flagged for a closer look

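In each genotype every named value was examined for a library that stood apart from the rest, by its gap to the nearest library as a share of the genotype's whole range. Of 82 such groups 4 held one, where chance alone gives about 1 in 20, or 4.1. The mean log2 level of the 10 granule genes was low in replicate 1 of RragcS74N/+, at 10.69 against 11.10 in the next library, a gap of 0.909 of the range. Lyz2 was high in replicate 5 of Rragc+/+, at 13501 normalized counts against 10904, a gap of 0.762 of the range. Slpi was low in the same library, at 2084 against 2896, a gap of 0.765. Vamp2 was high in replicate 2 of Rragc+/+, at 43.2 against 15.9, a gap of 0.776.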

How the results depend on the processing

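No granule gene and no gene of the pathway lists passed the adjusted threshold in any alternative run. Nor did any other gene tested, so this does not set the granule genes or the lists apart. Of 200 recomputed changes of the 10 genes over 20 settings, 179 kept their direction, 21 reversed and 0 passed, with a smallest adjusted p of 0.352 (Camp without replicate 5 of Rragc+/+, limma). Ltf, Camp, Olfm4 and Mmp25 kept their direction in each. With the base-composition trend removed, 4 genes lay below 0 instead of 7, with log2 changes of 0.053 for Ngp, 0.0022 for Lcn2, -0.034 for Chil3, 0.20 for Cd177 and 0.024 for Mmp9. Mmp8 turned to 0.0055 with array weights and 0.021 with the length trend removed. Leaving out 1 library gave log2 changes of -0.13 to 0.053 for Ngp, -0.17 to 0.18 for Chil3, -0.068 to 0.074 for Mmp8, -0.28 to 0.15 for Cd177, -0.12 to 0.022 for Mmp9, -0.29 to -0.015 for Ltf, -0.28 to -0.013 for Lcn2, 0.16 to 0.59 for Camp, 0.04 to 0.42 for Olfm4 and -0.34 to -0.09 for Mmp25. It gave 0 to 1 members with an unadjusted p under 0.05, the 1 being Camp without replicate 5 of Rragc+/+ (0.59 on the log2 scale), where 13.7% of all genes tested had such a p. The values nearest 0 for Ltf and Lcn2 came without replicate 1 of RragcS74N/+.

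The log2 difference of the granule share was -0.0047 as reported, 0.014 without the 20 most abundant other genes in the denominator, 0.018 without Ngp in the sum, and -0.047 to 0.052 when 1 library was left out. That of the gelatinase to specific ratio ran from -0.22 to 0.043, and that of the mean level from -0.052 to 0.098, with 0.045 and 0.010 after the base-composition and length trends were removed. The correlation of that ratio with the mature neutrophil level turned to 0.30 without 2 libraries, that of Ltf with Camp to 0.056 with genotype means removed, and that of Camp with Ngp to -0.41 with the length trend removed. The cause of these changes was not tested. No paired analysis was possible because no label carries a replicate number. The replicate numbers used here count the libraries of each genotype in the order of the samples and pair nothing. At the depth of these libraries Cd177 and Olfm4 had as few as 114 and 76 reads, which limits the precision of both.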
